A study of Mus musculus with 3 samples.

Results

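The microRNA families miR-297, miR-466, miR-467 and miR-669 were measured in mouse neural stem cells (NSCs), embryonic stem cells (ESCs) and embryonic fibroblasts (MEFs). Every assay named miR-297, miR-466, miR-467 or miR-669, with any letter, arm or star, was taken from a qRT-PCR set built on miRBase version 14. This gave 54 of the 709 microRNA assays, 40 on plate 1 and 14 on plate 2. The families had 6 assays (miR-297), 20 (miR-466), 12 (miR-467) and 16 (miR-669). The NSCs were derived from fetal forebrain, and the ESCs and MEFs served as controls. No genotype, strain, age, treatment or time is given in the labels, and the series' design text states that RNA was pooled in equal amounts. There was 1 sample of each cell type, read in 2 PCR runs, so the error of every value is that of the PCR alone and no test between cell types was possible.

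Most of these microRNAs are encoded in one large array inside Sfmbt2, a mouse Polycomb group gene that is imprinted and active in the early embryo and placenta. A microRNA precursor folds into a hairpin, and either of its arms, 5p or 3p, can be kept as the mature strand; in older names the less abundant arm carries a star. Bases 2 to 8 of the mature strand, the seed, do most of the pairing with target mRNAs. Members of these families are rich in alternating purines and pyrimidines (CA or UG repeats). Names with the same number and different letters stand for closely related sequences, and how far one assay also read its near relatives was not tested.

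In the RefSeq annotation of GRCm38.p6, Sfmbt2 on chromosome 2 spans 72 microRNA genes, and all 72 belong to one of the 4 families. By name, 40 of the 54 assays matched genes inside Sfmbt2 only, 5 matched genes both inside and outside, 7 matched genes outside only and 2 matched no gene (miR-466a-3p and miR-466a-5p). The 5 assays with copies in both places were miR-297a, miR-297a*, miR-466f, miR-466f-3p and miR-466f-5p. The RefSeq sequence table matched the 7 assays whose genes lie elsewhere, 6 by their exact name and miR-466i through its 3p arm. Their mature sequences are shown to make the repeats visible, 5′ to 3′, with the seed in capitals.
miR-466i (3p): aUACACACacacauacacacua
miR-466j: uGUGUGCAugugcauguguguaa
miR-466k: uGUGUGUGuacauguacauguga
miR-467f: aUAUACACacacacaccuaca
miR-467g: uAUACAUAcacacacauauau
miR-467h: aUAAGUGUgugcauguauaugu
miR-669n: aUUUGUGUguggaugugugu
No seed was shared between any of these 7. The run ACACACAC, searched on the mature strand only, was found in 3 of the 7. It was found in 4 (0.238%) of the 1679 mature mouse sequences in the table, which include these 7. The run UGUGUGUG was found in 2 of the 7, and in 7 (0.417%) of the 1679. The table matched none of the other assays of these families, so both shares leave those assays out. Their genes lie on chromosome 13 within Cdk13 (miR-466i), chromosome 10 (miR-466j), chromosome 3 within Gm31419 (miR-466k), chromosome 11 within Fxr2 (miR-467f), chromosome 5 within Grk4 (miR-467g), chromosome 9 (miR-467h) and chromosome 3 within Slc30a7 (miR-669n).

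The threshold cycle, Ct, is the PCR cycle at which a product is seen, so a lower Ct means more of the microRNA and each cycle stands for a 2-fold step. A Ct was read for 52 of the 54 assays in NSCs, for 52 in ESCs and for all 54 in MEFs. A mean Ct of at most 32, taken here as well measured, was reached by 25 assays in NSCs, 27 in ESCs and 37 in MEFs. Over all 709 assays these numbers were 451, 382 and 515. Runs lay close together in that range, with a median gap of 0.28 cycles in NSCs, 0.14 in ESCs and 0.235 in MEFs. Above Ct 32 the median gap was 0.68, 0.66 and 0.72 cycles, and the widest gap was 3.12 cycles. Delta Ct is the Ct less the mean Ct of 3 small reference RNAs, U6, U1 and RNU43, on that plate in that sample. On plate 1, U6 came 2.59 cycles later in ESCs than in NSCs, U1 2.31 cycles later and RNU43, with 1 ESC run, 0.99 cycles later, so that equal Ct in both samples reads as less in NSCs. The choice among these RNAs moved many of the values below, and the PCR errors given below hold no term for them.

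The level of the members differed widely. The most abundant was miR-466f-3p, with Ct 22.21 and 22.17 in NSCs, 25.29 and 25.20 in ESCs and 22.76 and 22.65 in MEFs. Next in NSCs and MEFs came miR-466g, at 24.52 and 24.14 in NSCs, 27.54 and 27.36 in ESCs and a mean of 24.95 in MEFs. Within miR-669 the earliest was miR-669c, at 24.96 and 25.02 in NSCs, 27.35 and 27.18 in ESCs and 25.48 and 25.53 in MEFs. All 3 had their latest Ct in ESCs, as had the reference RNAs. Within miR-297 the earliest in every sample was miR-297a, with mean Ct 29.34 in NSCs, 31.62 in ESCs and 30.78 in MEFs. Within miR-467 it was miR-467f in NSCs (28.04), miR-467d* in ESCs (28.81) and miR-467a* in MEFs (27.99).

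**Figure D1:**
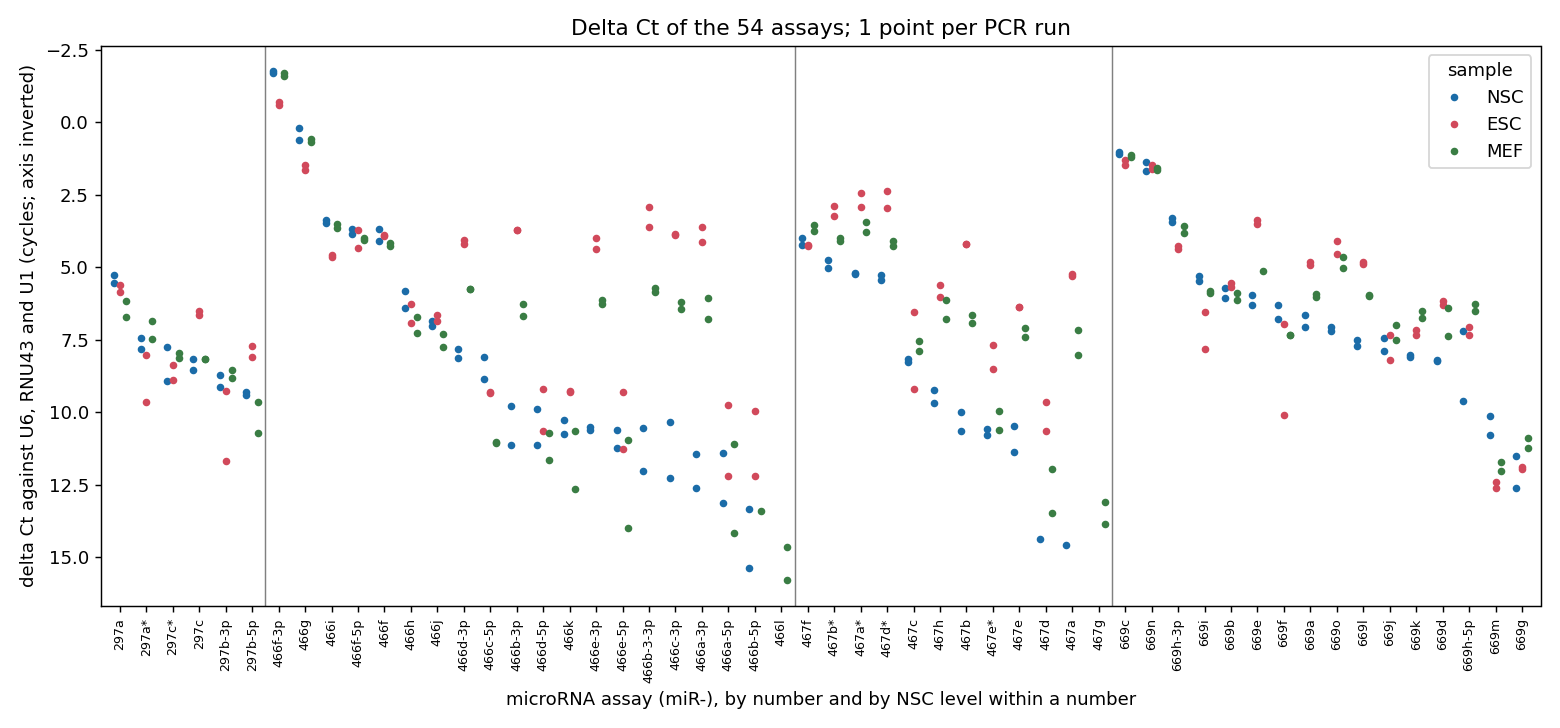
Delta Ct in cycles (vertical axis, inverted so that higher points mean more RNA) of the 54 assays, grouped by number and ordered by NSC level; each point is 1 PCR run of NSCs (blue), ESCs (red) or MEFs (green). The 3p arms miR-466a, b, c and e have NSC points at delta Ct near 10 or beyond while their ESC points lie near 4, and the most abundant members of miR-466 and miR-669 have points of all 3 samples within 2 cycles of each other.

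The comparison of NSCs with ESCs and MEFs asks which of these microRNAs set NSCs apart from a pluripotent cell and from a differentiated cell. A group of 3p arms of miR-466 and several members of miR-467 was far lower in NSCs than in either control. With the mean of the 3 reference RNAs, the 10 members most abundant in NSCs differed by less than 4-fold between any of the samples. These 10 were picked by their NSC Ct, which disfavours members low in NSCs, so the contrast is partly built in. A member was called when 3 conditions held, namely a fold of 4 or more, separate delta Ct of the runs of both samples, and a well measured level in the higher one. By this rule 14 of the 52 members measured in both were lower in NSCs than in ESCs, where 14.9% of the 678 assays measured in both were, and none was higher, where 2.95% were. Against MEFs, 11 of 52 were lower in NSCs (13.9% of 685 assays) and none was higher (1.75%). In ESCs, 7 of 52 were higher than in MEFs (5.30% of 679 assays) and none was lower (3.24%). The median log2 fold over the 52 members was -1.01 for NSCs over ESCs, -0.44 for NSCs over MEFs and 0.75 for ESCs over MEFs. Over all assays it was -0.42, -0.48 and -0.11. With RNU43 alone as reference, 9 members were lower and 6 higher in NSCs than in ESCs, where 76 and 56 of 678 assays were. Against MEFs, 8 members were lower and 2 higher in NSCs with RNU43 alone, where 60 and 50 of 685 assays were. With every Ct past 32 set to 32, the 11 lower than in MEFs became 3 of 39, where 81 of 552 assays were lower.

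The 14 members lower in NSCs than in ESCs and the 11 lower than in MEFs had 10 in common, which were miR-466a-3p, miR-466b-3-3p, miR-466b-3p, miR-466c-3p, miR-466d-3p, miR-466e-3p, miR-467a, miR-467b, miR-467h and miR-669o. Both comparisons use the same NSC sample, and the overlap of the calls over all assays was not counted. The other 4 called against ESCs were miR-669e, miR-669l, miR-467a* and miR-467d*, and miR-467e alone was called against MEFs only. Levels fell from ESCs over MEFs to NSCs in 22 of the 52 members, the most frequent order, and 13 members stayed within 1 log2 unit in all 3 comparisons. The shares of these over all assays were not counted.

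**Figure D2:**
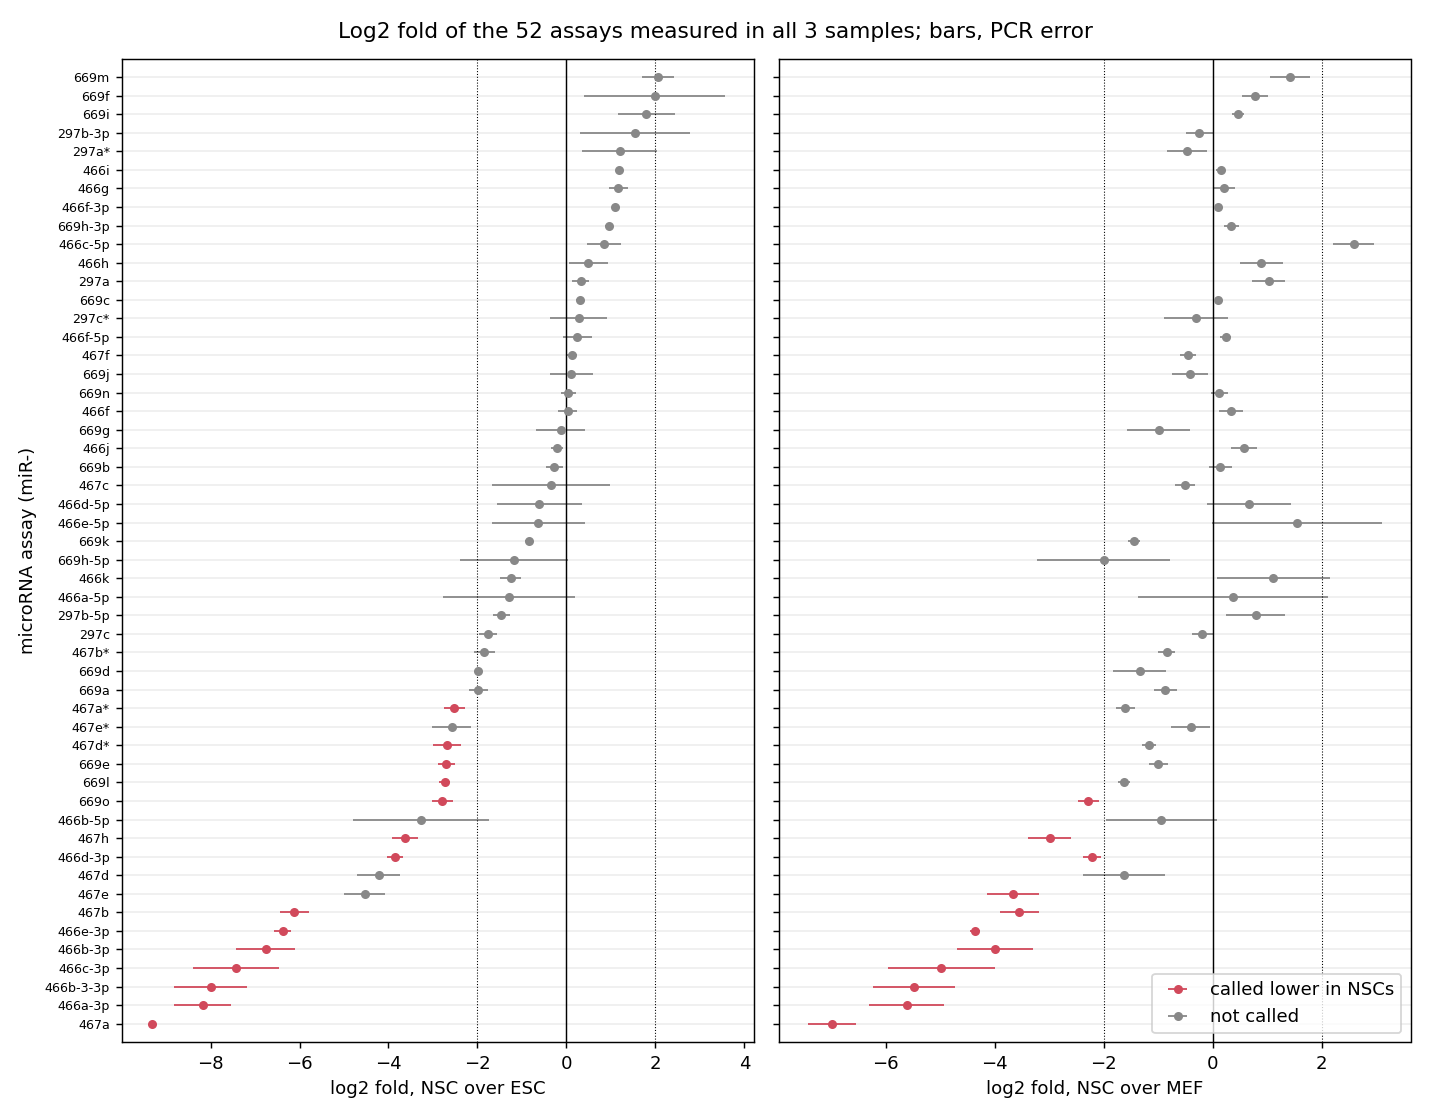
Log2 fold of NSCs over ESCs (left) and of NSCs over MEFs (right) for the 52 assays measured in all 3 samples, in the order of the left panel; bars are the PCR error, dotted lines mark a 4-fold difference, and red points were called lower in NSCs. The lowest points belong to miR-467a, miR-467b and the 3p arms of miR-466, and in both panels most of the other members lie between the dotted lines. With 1 NSC run, the bar of miR-467a holds the error of the other sample alone.

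The 3p arms of miR-466 made up 6 of the 10 members lower in NSCs than in both controls. Of 7 such assays, 6 were lower in NSCs than in both controls, with a median log2 fold of -6.76 against ESCs and -4.35 against MEFs. By name, miR-466b-3p and miR-466b-3-3p share the gene Mir466b-3. Reading of near relatives was not tested, so the 6 may not be separate signals. The lowest of them was miR-466a-3p, with Ct 36.55 and 35.38 in NSCs, 29.49 and 30.00 in ESCs and 30.41 and 31.13 in MEFs. No NSC run came near those of the other samples. Its log2 fold was -8.18 ± 0.64 for NSCs over ESCs and -5.61 ± 0.69 for NSCs over MEFs (PCR error, 2 runs a sample).

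The assay of miR-466b-3-3p read 34.46 and 35.95 in NSCs, 28.83 and 29.51 in ESCs and 30.21 and 30.07 in MEFs. That of miR-466b-3p read 33.72 and 35.06 in NSCs, 29.59 in both ESC runs and 31.03 and 30.60 in MEFs. That of miR-466c-3p read 36.19 and 34.26 in NSCs, 29.77 and 29.76 in ESCs and 30.79 and 30.54 in MEFs. All 3 were late in NSCs, with runs over 1 cycle apart, and earlier in both controls, with runs less than 1 cycle apart. Their log2 folds against ESCs were -8.00 ± 0.82, -6.76 ± 0.67 and -7.42 ± 0.97, in the same order, and against MEFs -5.48 ± 0.75, -3.99 ± 0.70 and -4.97 ± 0.98. With miR-466a-3p these made an order whose neighbours lay within their summed PCR errors in both comparisons.

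The runs of miR-466e-3p repeated well in every sample, at 34.43 and 34.53 in NSCs, 30.25 and 29.88 in ESCs and 30.62 and 30.47 in MEFs. Its log2 fold was -6.38 ± 0.19 against ESCs and -4.35 ± 0.09 against MEFs. For miR-466d-3p, the Ct was 32.07 and 31.73 in NSCs, 30.08 and 29.94 in ESCs and 30.09 and 30.10 in MEFs. It was the only one of the 6 with a mean NSC Ct of at most 32, and the least reduced, at -3.85 ± 0.18 against ESCs and -2.21 ± 0.17 against MEFs. The seventh 3p arm, miR-466f-3p, was not called, at 1.09 ± 0.05 against ESCs and 0.10 ± 0.06 against MEFs.

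The 5p arms of miR-466a to miR-466e were reduced by less than the 3p arms or not at all. Of the 6 assays for 5p arms of miR-466, none was called in either NSC comparison, with a median log2 fold of -0.62 against ESCs and 0.52 against MEFs. They were late in every sample except miR-466f-5p, and miR-466b-5p, the latest in NSCs and ESCs, had 1 MEF run. With mean Ct past 32 in every sample, the 5p arms of miR-466a to miR-466e could not be called in either direction. The log2 fold against ESCs was below 0 in 4 of the 6, and for miR-466b-5p it was -3.27 ± 1.53, a 9.67-fold difference. Both arms of each microRNA were on plate 1, so the distance between their Ct does not depend on the reference RNA. The 5p arm of miR-466c read 32.02 and 32.77 in NSCs, 35.22 and 35.18 in ESCs and 35.41 and 35.38 in MEFs. NSCs had the earliest runs, the reverse of its 3p arm. The 5p Ct minus the 3p Ct was -2.83 cycles in NSCs, 5.43 in ESCs and 4.73 in MEFs, so that the 5p arm came first in NSCs only.

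The same distance was 0.23 cycles in NSCs, 7.12 in ESCs and 6.22 in MEFs for miR-466a. It was 0.37, 6.11 and 6.27 cycles for miR-466e, 3.90, 7.39 and 6.95 for miR-466b and 2.55, 5.79 and 5.43 for miR-466d. In these 5 microRNAs the 3p arm led by more in ESCs and MEFs than in NSCs. The log2 fold of the 3p arm, NSCs over ESCs, minus that of the 5p arm was -8.26 ± 1.04 for miR-466c, -6.89 ± 1.62 for miR-466a, -5.74 ± 1.06 for miR-466e, -3.49 ± 1.67 for miR-466b and -3.24 ± 0.97 for miR-466d. Against MEFs the differences were -7.56 ± 1.05, -5.98 ± 1.88, -5.90 ± 1.56, -3.05 ± 1.24 and -2.88 ± 0.79. For miR-466f, the arms lay 5.51, 4.67 and 5.66 cycles apart, and the difference was 0.85 ± 0.32 against ESCs and -0.14 ± 0.12 against MEFs. The 5p arms of miR-466a, b, d and e had mean Ct above 34 in all samples, where the runs lay up to 3.06 cycles apart.

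**Figure D3:**
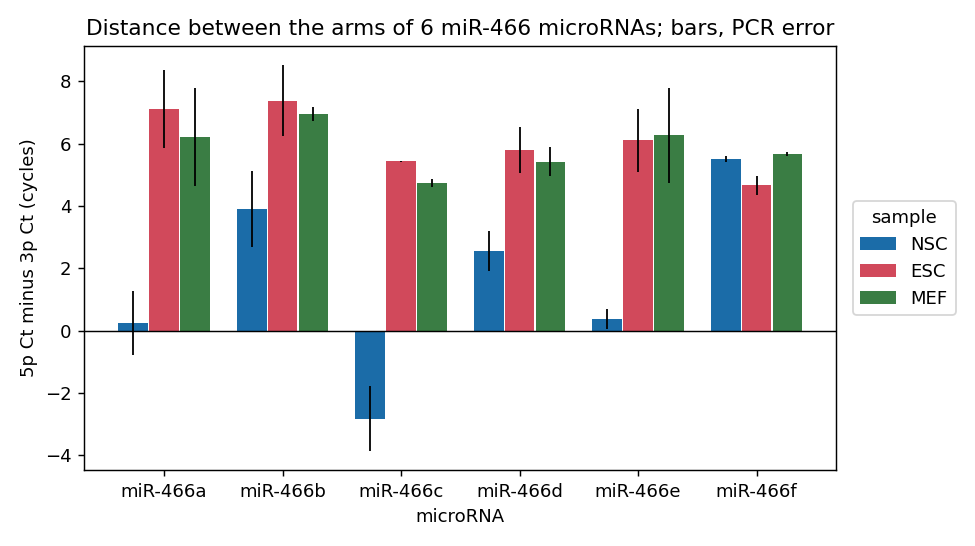
Ct of the 5p arm minus Ct of the 3p arm in cycles (vertical axis) for 6 microRNAs of miR-466 in NSCs (blue), ESCs (red) and MEFs (green); columns are means of the runs and lines the PCR error, with 1 MEF run for the 5p arm of miR-466b. The NSC column is the shortest for miR-466a to miR-466e and lies below 0 for miR-466c, at -2.83 cycles, while the 3 columns of miR-466f lie between 4.67 and 5.66 cycles.

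The 7 assays of miR-466 that name no arm were not called in any comparison with the mean of the 3 reference RNAs. They were miR-466f, miR-466g, miR-466h, miR-466i, miR-466j, miR-466k and miR-466l, and their median log2 fold was 0.26 for NSCs over ESCs and 0.46 for NSCs over MEFs in the 6 measured. The last of them, miR-466l, known in mouse macrophages to raise interleukin-10, had no Ct in NSCs and ESCs and was at 38.97 and 40.13 in MEFs, so no fold was formed. The assay of miR-466i read 27.31 and 27.41 in NSCs, 30.46 and 30.54 in ESCs and 28.00 and 27.86 in MEFs. Its log2 fold of 1.18 ± 0.06 for NSCs over ESCs was beyond the error of its own wells and under the 4-fold limit. That error leaves out the reference RNAs, and with RNU43 alone the fold passed the limit.

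The miR-467 family was the other group that was low in NSCs. Of 8 assays without a star, 7 were measured in all samples, 3 were lower in NSCs than in ESCs and 4 were lower than in MEFs. In miR-467a the Ct was 38.51 in the 1 NSC run that gave a value, 31.19 and 31.13 in ESCs and 32.38 and 31.50 in MEFs. This was the largest difference among the members, a log2 fold of -9.31 ± 0.03 against ESCs and -6.98 ± 0.44 against MEFs, where the errors hold no NSC term. In miR-467b, which targets lipoprotein lipase in mouse macrophages, the Ct was 33.92 and 34.58 in NSCs, 30.08 and 30.10 in ESCs and 30.97 and 31.26 in MEFs. Its log2 fold was -6.12 ± 0.33 against ESCs and -3.55 ± 0.36 against MEFs.

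The assay of miR-467e read 34.39 and 35.30 in NSCs, 32.26 and 32.27 in ESCs and 31.76 and 31.43 in MEFs. Its log2 fold was -4.54 ± 0.45 against ESCs and -3.66 ± 0.48 against MEFs, and it was called only against MEFs because its mean ESC Ct of 32.27 was past the limit. The assay of miR-467d was late everywhere, at 38.29 in 1 NSC run, 35.54 and 36.52 in ESCs and 37.83 and 36.32 in MEFs, and its 18.6-fold difference between ESCs and NSCs was therefore not called. Apart from miR-467h, which is given with its location, the other measured assays without a star lay closer together. They were miR-467c, at -0.35 ± 1.33 against ESCs and -0.50 ± 0.18 against MEFs, and miR-467f, at 0.13 ± 0.11 and -0.46 ± 0.15. The assay of miR-467g had no Ct in NSCs and ESCs and was at 37.43 and 38.19 in MEFs.

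The star arms of miR-467, on plate 2, were lower in NSCs by less. The Ct of miR-467a* was 29.26 and 29.28 in NSCs, 28.61 and 29.08 in ESCs and 27.81 and 28.16 in MEFs. That of miR-467d* was 29.31 and 29.49 in NSCs, 28.52 and 29.11 in ESCs and 28.64 and 28.48 in MEFs. Before the reference RNAs were subtracted, the NSC runs of both lay under 1 cycle above the ESC runs. The log2 folds against ESCs were -2.52 ± 0.24 and -2.68 ± 0.31, and both were called. The star arms of miR-467b and miR-467e were not called, at -1.84 ± 0.23 and -2.58 ± 0.44. Against MEFs none of the 4 star arms was called, with log2 folds of -1.61 to -0.40. The log2 fold of miR-467a against ESCs minus that of miR-467a* was -6.79 ± 0.24, and for miR-467b against miR-467b* it was -4.28 ± 0.41, with the arms on different plates. The delta Ct of miR-467a* minus that of miR-467a was -9.37 cycles in NSCs, -2.58 in ESCs and -4.0 in MEFs.

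Most of miR-669 was not called. Of 16 assays, 3 were lower in NSCs than in ESCs and 1 lower than in MEFs, beside the 14.9% and 13.9% of all assays, and the median log2 fold was -0.20 and -0.65. The 3 were miR-669e, miR-669l and miR-669o. The Ct of miR-669o was 31.26 and 31.11 in NSCs, 30.70 and 30.25 in ESCs and 29.40 and 29.05 in MEFs, with log2 folds of -2.79 ± 0.24 against ESCs and -2.28 ± 0.19 against MEFs. The Ct of miR-669e was 29.89 and 30.23 in NSCs, 29.39 and 29.26 in ESCs and 29.47 in the 1 MEF run, with -2.70 ± 0.19 against ESCs and -1.0 ± 0.17 against MEFs. The Ct of miR-669l was 31.77 and 31.55 in NSCs, 31.05 and 30.97 in ESCs and 30.38 and 30.35 in MEFs, with -2.74 ± 0.12 and -1.62 ± 0.11. In all 3 the ESC Ct was less than 1 cycle ahead of the NSC Ct, and the rest of the difference from ESCs came from the reference RNAs, as it did for the star arms of miR-467. With RNU43 alone as reference, none of the 3 was called against ESCs, nor were miR-467a* and miR-467d*.

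The assay of miR-669a, which in mouse cardiac progenitors targets MyoD, fell just short of the 4-fold limit against ESCs, at -1.98 ± 0.22, with mean Ct 30.77 in NSCs and 30.75 in ESCs. That of miR-669d fell just short too, at -1.98 ± 0.07. On the other side, miR-669m had a log2 fold of 2.06 ± 0.36 and miR-669f of 1.98 ± 1.58 for NSCs over ESCs. Neither was called. The mean Ct of miR-669m was 34.52 in NSCs and 38.67 in ESCs, past the limit in both, and the fold of miR-669f was 3.96, just under 4, with ESC runs at 35.98 and 32.86. The miR-297 family had no call, with 6 of 6 measured and a median log2 fold of 0.30 against ESCs and -0.22 against MEFs.

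The 10 members with the lowest NSC Ct showed no call with the mean of the 3 reference RNAs. With RNU43 alone, miR-466f-3p, miR-466g and miR-466i among them were called higher in NSCs than in ESCs, as were 56 of all 678 assays. The 10 were miR-466f-3p, miR-466g, miR-669c, miR-669n, miR-669h-3p, miR-466i, miR-466f-5p, miR-466f, miR-467f and miR-467b*, with mean NSC Ct of 22.19 to 28.96. Their log2 folds were -1.84 to 1.18 for NSCs over ESCs, -0.84 to 0.34 for NSCs over MEFs and -1.03 to 1.0 for ESCs over MEFs. NSCs and MEFs thus differed by less than 2-fold in each of them. The choice by NSC Ct disfavours members low in NSCs, and a choice by ESC Ct would give other members. In ESCs, miR-467d*, which was called lower in NSCs, had mean Ct 28.81 and came before miR-669h-3p at 30.2. Of the 14 members lower in NSCs than in ESCs, 6 had a mean Ct of at most 32 in both samples, which were miR-466d-3p, miR-669e, miR-669l, miR-669o, miR-467a* and miR-467d*. For the other 8 the size of the fold rests on NSC wells past Ct 32.

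By location, 12 of the 39 measured assays with genes inside Sfmbt2 only were lower in NSCs than in ESCs, beside 14.9% of all assays. The median log2 fold of the 39 was -1.76, and over all assays it was -0.42. None of the 5 with copies inside and outside was called lower, with log2 folds of 0.02 to 1.20. Of the 7 outside only, 6 were measured, with a median of -0.08, and miR-467h was the 1 called. Its Ct was 33.60 and 33.15 in NSCs, 31.51 and 31.90 in ESCs and 30.48 and 31.12 in MEFs, and its log2 folds were -3.63 ± 0.29 against ESCs and -2.99 ± 0.39 against MEFs. Its hairpin from RefSeq (GRCm38.p6, chromosome 9, plus strand) is shown because it is the called member that lies away from Sfmbt2, with the mature strand, bases 80 to 101, in capitals.
Mir467h: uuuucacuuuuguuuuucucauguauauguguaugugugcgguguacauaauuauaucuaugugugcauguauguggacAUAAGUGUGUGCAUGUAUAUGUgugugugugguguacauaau
The mature strand of this microRNA lies in the 3′ part of the hairpin, between UG-rich stretches.

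The called members were also placed in the order of their genes inside Sfmbt2. The 72 genes were divided, with the values known, at Mir467c and at Mir466, between which copies of miR-466, miR-467a and miR-669a genes alternate. The counts below take only assays with all their genes inside Sfmbt2 and within 1 stretch. Left out are miR-669a, the assays with copies inside and outside, the 7 with genes outside only, and both arms of miR-466a, which matched no gene. Among those left out only miR-466a-3p and miR-467h were called. Over all assays, 14.9% were lower in NSCs than in ESCs and 13.9% lower than in MEFs. The 44 genes from Mir467c to Mir466 matched 19 such assays, of which 8 were lower in NSCs than in ESCs and 7 lower than in MEFs. The median log2 fold of the 19 was -2.68 against ESCs and -1.44 against MEFs. These 8 were miR-466b-3-3p, miR-466b-3p, miR-466c-3p, miR-466e-3p, miR-467a, miR-467b, miR-467a* and miR-467d*. The 12 genes before this stretch matched 5 such assays, 2 of them lower than in ESCs (miR-669e and miR-669l) and none lower than in MEFs. The 16 genes after it matched 15 such assays, 14 of them measured, with 2 lower than in each control (miR-466d-3p and miR-669o) and a median of 0.29 against ESCs. In the middle stretch miR-669g and miR-669j were at -0.13 ± 0.55 and 0.11 ± 0.48 against ESCs. The mean Ct of miR-669g was 35.98 in NSCs and 37.81 in ESCs, past the limit of 32 in both, and the gene next to it on one side carries miR-669a, which was not called. The genes of miR-669a lie in more than 1 stretch. No test was made. Copies of one microRNA cannot be told apart by these assays, and reading of near relatives was not tested.

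**Figure D4:**
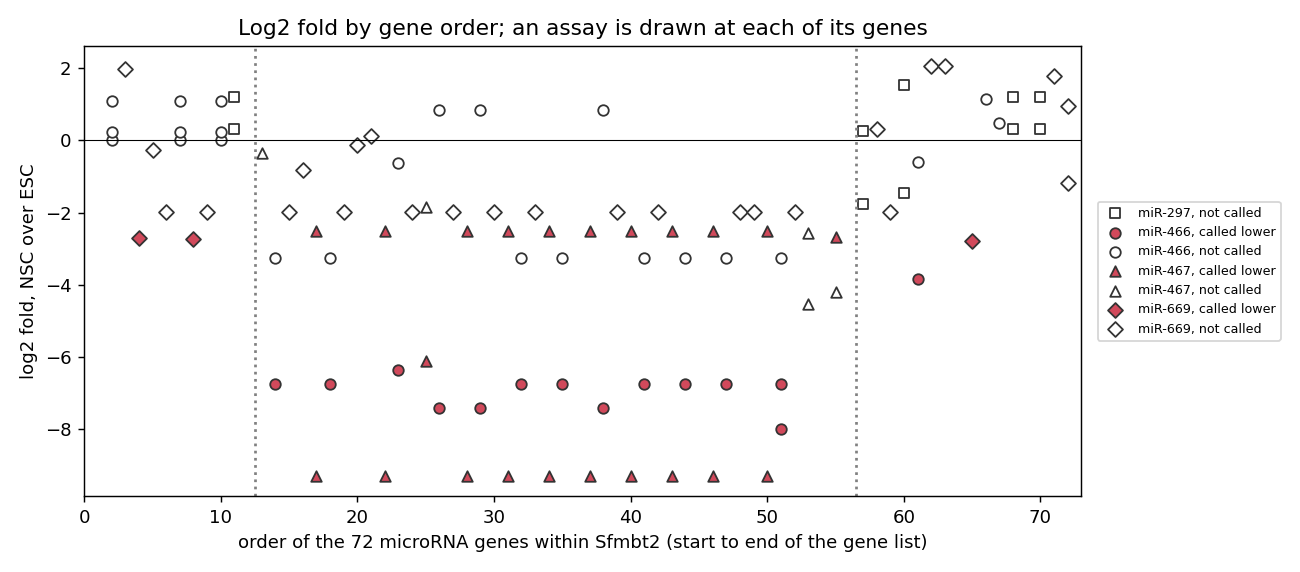
Log2 fold of NSCs over ESCs (vertical axis) against the order of the 72 microRNA genes inside Sfmbt2, with each assay drawn at every gene that carries its name; marker shapes give the number, filled markers were called lower, and dotted lines mark Mir467c and Mir466. Values below -6 occur only between the dotted lines among the assays drawn, where the points of miR-466b-3p, miR-466c-3p and miR-467a repeat with their gene copies.

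Between the controls, the 7 members higher in ESCs than in MEFs were the 3p arms of miR-466a, miR-466b, miR-466c and miR-466e, miR-466b-3-3p, miR-467a and miR-467b, all of them also lower in NSCs than in both. Their log2 folds for ESCs over MEFs were 2.57 ± 0.44 (miR-466a-3p), 2.77 ± 0.21 (miR-466b-3p), 2.45 ± 0.13 (miR-466c-3p), 2.03 ± 0.20 (miR-466e-3p), 2.52 ± 0.35 (miR-466b-3-3p), 2.33 ± 0.44 (miR-467a) and 2.57 ± 0.15 (miR-467b). The mean Ct of miR-466b-3p, which had the largest of these folds, was 29.59 in ESCs and 30.81 in MEFs, and the reference RNAs came later in ESCs than in MEFs, by 1.66 cycles for U6, 1.77 for RNU43 and 1.21 for U1 on plate 1.

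The labels were checked against microRNAs known for each cell type. Of 10 ESC markers, 9 were lower in NSCs than in ESCs and 9 were higher in ESCs than in MEFs. Of 5 neural markers, 3 were higher in NSCs than in each control. Of 7 fibroblast markers, NSCs had 6 below MEFs and 6 below ESCs. Their median log2 fold for ESCs over MEFs was -1.06 (range -2.49 to -0.25), with 1 of 7 called lower. All 7 were thus lower in ESCs than in MEFs, while their median for NSCs over MEFs was -7.66. Whether fibroblast microRNAs in the ESC sample bear on the ESC levels of the 54 members was not tested.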

How the data were processed

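RNA of 1 sample each of NSCs, ESCs and MEFs was poly-A tailed, reverse transcribed with an oligo-dT adaptor and amplified with SYBR Green for 40 cycles, per the labels. The authors deposited values in cycles, a Ct per well and a delta Ct per sample, and tables of their own fold and p-value, which were not used. The sources used here do not say how Ct was set. Own delta Ct equalled the deposited delta Ct except for ESCs on plate 1, where 6.90 cycles more had been subtracted, so delta Ct was computed from the Ct of the 2 runs. A supplementary table of the study lists other MEF Ct for the same wells and the same NSC and ESC Ct. It was not used, and every comparison with MEFs rests on the deposited Ct.

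The log2 fold is the difference in delta Ct between 2 samples, at 2-fold amplification a cycle. Its error is the quadrature sum of the run SD over the square root of 2, taken from 1 sample where the other had 1 run. It holds the runs of the assay only, and the spread of the reference RNAs is left out. A call asked for a fold of 4 or more, separate runs, and Ct 32 or earlier on average in the sample with more RNA. The 2 no-template assays gave no value. Named are the members called in any comparison, those without a value, their other arms and the earliest and latest of each number, and a few others chosen after their values were seen. The members, lists and rules were chosen with earlier results of these data known. Names, gene order and sequences are from RefSeq GRCm38.p6. The files name no genome build, so no coordinates are given. Python 3.11.15, pandas 2.3.3, numpy 2.4.6 and matplotlib 3.10.9 were used. The alternatives tried were other reference RNAs, other treatments of late wells, single runs and 1.9-fold amplification.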

Additional observations from a re-analysis of the deposited data

How the results depend on the processing

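The 7 members called higher in ESCs than in MEFs were 5 to 8 under every alternative. For NSCs against ESCs, 9 of the 14 members called lower remained with RNU43 alone (miR-467a*, miR-467d*, miR-669e, miR-669l and miR-669o lost), 6 with microRNAs above Ct 32 in either sample left out and 9 with runs within 1 cycle in both samples. For NSCs against MEFs, 3 of the 11 remained with later Ct set to 32, 2 with microRNAs above Ct 32 left out and 6 with runs within 1 cycle. Under the late-well settings this follows from their construction, since the NSC Ct is capped or dropped. No member was called higher in NSCs than in ESCs at first, but 6 were with RNU43 alone, 2 with the mean of microRNAs at Ct of at most 32 as reference, 1 in run 1 alone and 2 in run 2 alone; against MEFs 2 were with RNU43 alone. No member was called lower in ESCs than in MEFs, but 1 was in run 1 alone and 1 in run 2 alone. The cause was not tested. In run 2 alone miR-467a has no NSC value.

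The median log2 fold of the members moved with the reference RNA and with the treatment of late wells. For NSCs over ESCs it was -1.48 with U6 alone, -0.029 with RNU43 alone, -1.47 with U1 alone, -0.33 with the mean of microRNAs, -1.81 with later Ct set to 32, -1.39 with later Ct set to 35 and 0.025 with microRNAs above Ct 32 left out. For NSCs over MEFs it was -0.88, 0.71, -1.12 and 0.048 with the same 4 references, and 0.10 with microRNAs above Ct 32 left out. For ESCs over MEFs it was 0.41 with U1 alone. With the mean of U6 and U1, chosen after seeing the data, it was -1.50 for NSCs over ESCs and -1.0 for NSCs over MEFs. The median over all assays moved too. For NSCs over ESCs the member median less that of all assays was -0.59 in the main setting. It was -0.54 with U6 alone, -0.59 with RNU43 alone, -0.60 with U1 alone and -0.59 with the mean of microRNAs. It was -1.06 with later Ct set to 32, -0.90 with later Ct set to 35 and 0.51 with microRNAs above Ct 32 left out. For NSCs over MEFs it was 0.04 in the main setting. One uncalled member, miR-297c*, was called in the other direction, at -2.0 for NSCs over ESCs with later Ct set to 32. The difference between the arms stayed below 0 for miR-466a to miR-466e under every alternative that gave it, from -9.62 to -1.15 over both comparisons. Other references could not change it, since both arms share plate 1. Later Ct set to 32, microRNAs above Ct 32 left out and runs within 1 cycle gave no value for any of them. Later Ct set to 35 gave none for miR-466a and miR-466b. Single runs and 1.9-fold amplification were the other alternatives able to change it. Between miR-467a and miR-467a* the difference ranged from -6.95 to -0.28 for NSCs over ESCs and from -5.45 to 0.94 for NSCs over MEFs. For miR-467b and miR-467b* it ranged from -4.63 to -2.03 and from -2.78 to -0.46. No paired analysis was possible because each cell type has 1 sample and the runs are repeats of it.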
